A study of Mus musculus with 6 samples.

Results

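The 3 genes described here, Rnu3a, Snord15a and Snord13, encode C/D box snoRNAs, short RNAs of the nucleolus that pair with ribosomal RNA. Bound by a set of core proteins, most C/D box snoRNAs guide ribose methylation of ribosomal RNA. U3, the product of Rnu3a, instead belongs to the small-subunit processome, which cleaves and folds the ribosomal RNA precursor. Snord15a encodes U15, a guide RNA that lies in an intron of the ribosomal protein gene Rps3. Snord13 encodes U13, which in human cells guides a base acetylation of the small-subunit ribosomal RNA. A gene counted as measured when a single-exon transcript model covered at least 90% of its span and was at most 8 times its length. The 3 genes are among 9 genes with symbols starting with Snord or Rnu3 that had such a model, of 102 such genes in RefSeq, and the files list 7959 models in all. All 9 passed the filter on low counts.

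The data are RNA sequencing libraries of MEL cells, a mouse erythroleukemia line labelled C57BL/6, whose chromatin was crosslinked with formaldehyde. There were 3 groups of 2 libraries. The input group was chromatin without capture, the masked TH59-DB group was captured with the negative-control probe, and the TH59-DB group with the pyrrole–imidazole polyamide probe for telomeres. All groups shared the line, the culture and the crosslinking, and with no label that tells separate cultures from repeat preparations, p-values measure the spread between these libraries only. The library without a number in its label is called number 1.

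Library totals ran from 1803723 to 3122558 reads, and levels are given in CPM, the reads per 1000000 of that total, in which a single read was worth 0.320 to 0.554. In masked TH59-DB 1 a single model took 50.8% of the reads, against 2.77% to 20.8% for the same model in the other libraries, and 4341 models had 0 reads. TH59-DB 1 had at least 5 reads in every listed model, so that no listed model could be at 0 there. Of 18 erythroid marker genes 9 had a model, among them Gata1 and Klf1 but none of the 4 globin genes, and they summed to 181 to 610 CPM. Of 9 markers of other blood cells 2 had a model, at 1.52 to 31.5 CPM, and of 4 markers of other tissues 0 had one. Terc, the telomerase RNA, stood at 23.8 to 77.1 CPM in the input and masked libraries and at 31330 and 13957 CPM with TH59-DB. In such bulk samples, fewer cells of a type and less RNA per cell cannot be told apart.

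Rnu3a lies on chromosome 10 from 40258468 to 40258679 (mm10), and its model, from 40258470 to 40258690, missed 2 bases of the gene. Snord15a lies on chromosome 7 from 99482785 to 99482932, and its model ran 6 bases past the higher end. Snord13 lies on chromosome 8 from 31149861 to 31149958. Its model of 193 bases was 1.97 times as long as the gene, with 80 bases before and 15 after it, so its reads need not all be U13. The 3 genes lay in chromosome interiors, at least 31.1 Mb from the first and 45.9 Mb from the last gene or model of their chromosome. No other single-exon model overlapped theirs.

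RefSeq holds 4 further U3 genes, Rnu3b1 to Rnu3b4, which are near-identical copies, and 0 of them had a single-exon model over them. How reads that match several copies were counted is not given in the sources used here, so the Rnu3a count is uncertain by the reads of those copies. The library kit was a stranded one per the labels, but 5991 of the 5997 single-exon models carried no strand in the number 2 files and a plus sign in the number 1 files. Whether counting used strand is not given in the sources used here, so the values may include antisense reads.

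U3 took more reads than any other C/D box snoRNA in all 6 libraries, and its values differed most between the 2 input libraries. Rnu3a had 2179 reads in input 1, or 730 CPM, and 445 reads in input 2, or 156 CPM. It had 160 CPM in masked TH59-DB 1 and 168 CPM in masked TH59-DB 2. With TH59-DB it had 319 CPM in library 1 and 115 CPM in library 2. Input 1 stood highest and TH59-DB 1 next, while the other 4 libraries lay between 115 and 168 CPM, so that all 3 groups overlapped. The group means were 443 ± 406 CPM in the input, 164 ± 5.28 with the masked probe and 217 ± 145 with TH59-DB (SD, n = 2 each).

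Snord15a had a narrower range. Its level was 156 CPM in input 1 and 88.6 CPM in input 2. It was 67.5 CPM in masked TH59-DB 1 and 92.6 CPM in masked TH59-DB 2. With TH59-DB it was 145 CPM in library 1 and 64.5 CPM in library 2. Both masked values lay between the 2 TH59-DB values, and all 3 groups overlapped. The highest library was 2.41-fold above the lowest, against 6.36-fold for Rnu3a. The means were 122 ± 47.5 CPM in the input, 80.0 ± 17.7 with the masked probe and 105 ± 57.1 with TH59-DB (SD, n = 2 each).

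Snord13 was rare. It had 14 reads in input 1 and 2 in input 2, 0 and 4 in the masked libraries 1 and 2, and 22 and 7 in the TH59-DB libraries 1 and 2. With 95% exact intervals that cover counting error only, this was 4.69 CPM in input 1 (2.56 to 7.87) and 0.701 CPM in input 2 (0.0848 to 2.53). Masked TH59-DB 2 had 1.28 CPM (0.349 to 3.28), and masked TH59-DB 1 had 0 reads, with an exact upper limit of 1.87 CPM and 1.52 CPM as the level of 3 reads. Both TH59-DB libraries lay above both masked ones, at 12.2 CPM (7.64 to 18.5) and 2.70 CPM (1.09 to 5.57). The counting intervals of the 2 number 2 libraries overlapped, and input 1 lay above TH59-DB 2.

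**Figure D1:**
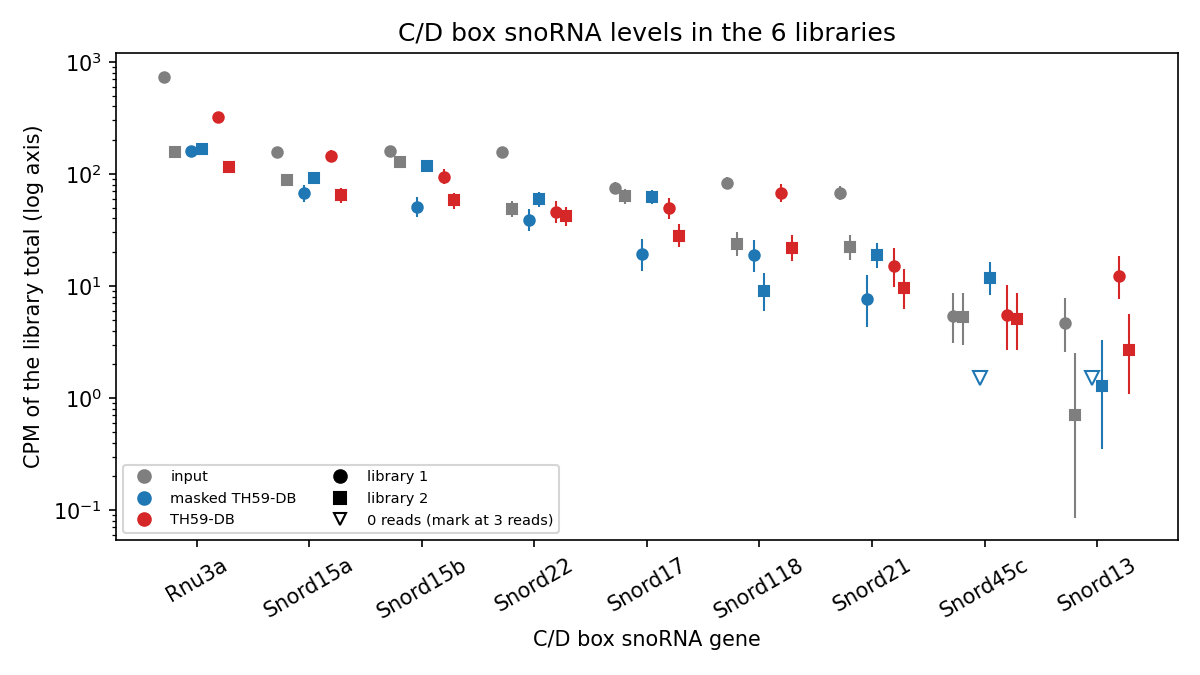
Level of each C/D box snoRNA gene with a model in the 6 libraries, in CPM on a log axis, with 95% exact counting intervals; colours mark the groups, circles library 1, squares library 2, and open triangles 0 reads, placed at the level of 3 reads. For Rnu3a, input 1 stands at 730 CPM against 156 CPM in input 2, and Snord13 lies at 12.2 CPM or below in every library.

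Setting TH59-DB beside its masked control addresses which RNAs were captured with the telomere probe beyond the background of the procedure. None of the 3 genes passed at an adjusted p under 0.05 (edgeR quasi-likelihood test, Benjamini-Hochberg adjustment over 5385 models), where 1.41% of all tested models did. The log2 fold change of Rnu3a was 0.42 (SE 0.92, adjusted p = 0.972), and that of Snord15a was 0.50 (SE 0.67, adjusted p = 0.949). Within same-numbered libraries both genes went opposite ways. Rnu3a was 1.99-fold higher with TH59-DB in the number 1 libraries, and in the number 2 libraries the ratio was 0.684. For Snord15a the ratios were 2.15 and 0.697.

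With the reads of the most abundant model of masked TH59-DB 1 taken out of every library total, a scaling chosen after seeing the data, Rnu3a stood at 326 CPM in masked TH59-DB 1 and 194 in masked TH59-DB 2. The TH59-DB libraries then had 403 and 118 CPM, and the groups still overlapped.

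Snord13 had the largest fitted change of the C/D box genes against the masked probe, at 3.45 on the log2 scale (SE 1.84, adjusted p = 0.674). Its mean was 7.45 ± 6.71 CPM with TH59-DB and 0.641 ± 0.906 CPM with the masked probe (SD, n = 2 each), a ratio of 11.6. Pooled reads gave a ratio of 8.41 with a 95% exact counting interval of 2.95 to 32.9. That the groups did not overlap, with TH59-DB higher, held for 16.1% of all tested models. Every listed model had at least 5 reads in TH59-DB 1, where Snord13 had its highest count, 22 reads. For so rare an RNA the fitted change, the ratios and the lack of overlap are therefore description, not a test of capture. Without masked TH59-DB 2 the fitted value was 6.85 (adjusted p = 0.0322), which is no bound, since the only control left, masked TH59-DB 1, had 0 reads. In that setting 1720 models passed, and the median log2 fold change of all tested models was 5.10.

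Against input chromatin, TH59-DB held a mean of 217 CPM of Rnu3a where the input held 443, and the log2 fold change was -1.40 (SE 0.93, adjusted p = 0.619). Without input 1 it was 0.57, beside a median of 0.54 over all tested models in that setting, so the direction rested on that library. For Snord15a it was -0.43 (SE 0.67, adjusted p = 0.916), and 0.41 without input 1. For Snord13 it was 1.00 (SE 1.64, adjusted p = 0.922), with 3.25 without input 1 and 0.0033 without input 2. None of the 3 genes passed, and 3.62% of all tested models did.

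The masked probe against input gives the background of the capture itself. The log2 fold change was -1.82 for Rnu3a (SE 0.94, adjusted p = 0.811), -0.93 for Snord15a (SE 0.68, adjusted p = 0.838) and -2.44 for Snord13 (SE 1.80, adjusted p = 0.838). Without input 1 these values were 0.40, 0.12 and 0.0027, beside a median of 0 over all tested models in that setting. None passed here, where 0.26% of all tested models did. The 3 comparisons share libraries, so their values are not independent.

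The other 6 C/D box genes with a model were Snord15b, Snord17, Snord21, Snord22, Snord45c and Snord118. Snord15b is the second U15 gene within Rps3, and Snord118 encodes U8, which takes part in processing the large-subunit ribosomal RNAs. Levels of different genes were compared as reads per 1000 bases of model per 1000000 reads. On this scale Rnu3a was first in 4 of the 6 libraries. Snord15b was above it in input 2, at 820 against 705, and in masked TH59-DB 2, at 762 against 759.

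The per-length mean of Rnu3a in the input was 2004 ± 1837, ahead of Snord15b with 925 ± 149 and Snord15a with 793 ± 308 (SD, n = 2 each). Next came Snord21 with 495 ± 357, Snord22 with 481 ± 354, Snord118 with 330 ± 259 and Snord17 with 269 ± 33.0. Each of these 7 genes overlapped its neighbour in the order. Snord45c with 26.9 ± 0.380 and Snord13 with 14.0 ± 14.6 lay below all of them in both libraries. With TH59-DB the per-length order began with Rnu3a at 982 ± 655, Snord15a at 681 ± 371, Snord15b at 488 ± 165 and Snord118 at 278 ± 202, again each overlapping the next. With the masked probe Snord118 had a per-length mean of 85.6 ± 42.8, below Snord21 with 146 ± 87.7, which it overlapped.

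After U13, the largest fitted change against the masked probe was that of U8. Snord118 had 83.1 CPM in input 1 and 23.8 CPM in input 2. It had 18.8 and 8.97 CPM in the masked libraries 1 and 2, and 68.2 and 22.0 CPM in the TH59-DB libraries. The TH59-DB and masked groups did not overlap, but with the most abundant model taken out of the totals they did. The log2 fold change was 1.62 (SE 0.88, adjusted p = 0.686).

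Snord21 had 68.0 and 22.1 CPM in the input, 7.61 and 18.9 CPM with the masked probe, and 15.0 and 9.66 CPM with TH59-DB. The input lay above both captured groups without overlap. Its log2 fold change was -2.06 with TH59-DB (SE 0.81, adjusted p = 0.261) and -2.21 with the masked probe (SE 0.81, adjusted p = 0.581), both against input.

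Over the 9 C/D box genes, 0 passed in any of the 3 comparisons with edgeR, and 0 passed with DESeq2. At an unadjusted p under 0.05 there were 0 against the masked probe, beside 9.95% of all tested models in either direction. Snord21 was lower at that level with TH59-DB than in the input, beside 5.14% of all tested models, and Snord21 and Snord118 were lower with the masked probe than in the input, beside 2.95%. Without masked TH59-DB 2, Snord13 and Snord45c passed as higher with TH59-DB than with the masked probe, as did 20.6% of all models tested in that setting. Snord45c then passed as lower with the masked probe than in the input, as did 14%. Both genes have 0 reads in masked TH59-DB 1.

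Against the masked probe all 9 fitted log2 fold changes were positive, with a median of 0.31, beside a median of 0.30 over all tested models, of which 59.6% were positive. With library totals and no TMM factors 4 of the 9 were positive and 5 negative, with 4 and 5 also without TH59-DB 2. Only Snord13 and Snord118 of the 9 lay higher with TH59-DB without overlap, and 0 lay lower, beside 16.1% and 14.7% of all tested models. With the most abundant model taken out of the totals, 1 lay higher (Snord13) and 1 lower (Snord22).

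Against input, 2 of the 9 were positive with TH59-DB and 7 negative, with a median of -0.93 beside 0.03 over all tested models. Snord15b, Snord17, Snord21 and Snord22 were lower than the input without overlap, or 4 of 9, beside 23.5% of all tested models, and 0 were higher, beside 22.5%. With the most abundant model taken out, 3 were lower, since Snord22 then overlapped. With the masked probe all 9 were negative against input, with a median of -1.46 beside -0.26. Snord15b, Snord17, Snord21 and Snord118 were lower without overlap, beside 14.4% of all tested models, and 0 were higher, beside 15.9%; with the most abundant model taken out, 3 were lower. Without input 1 the medians against input were 0.41 with TH59-DB, beside 0.54 over all tested models, and 0.0027 with the masked probe, beside 0.

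**Figure D2:**
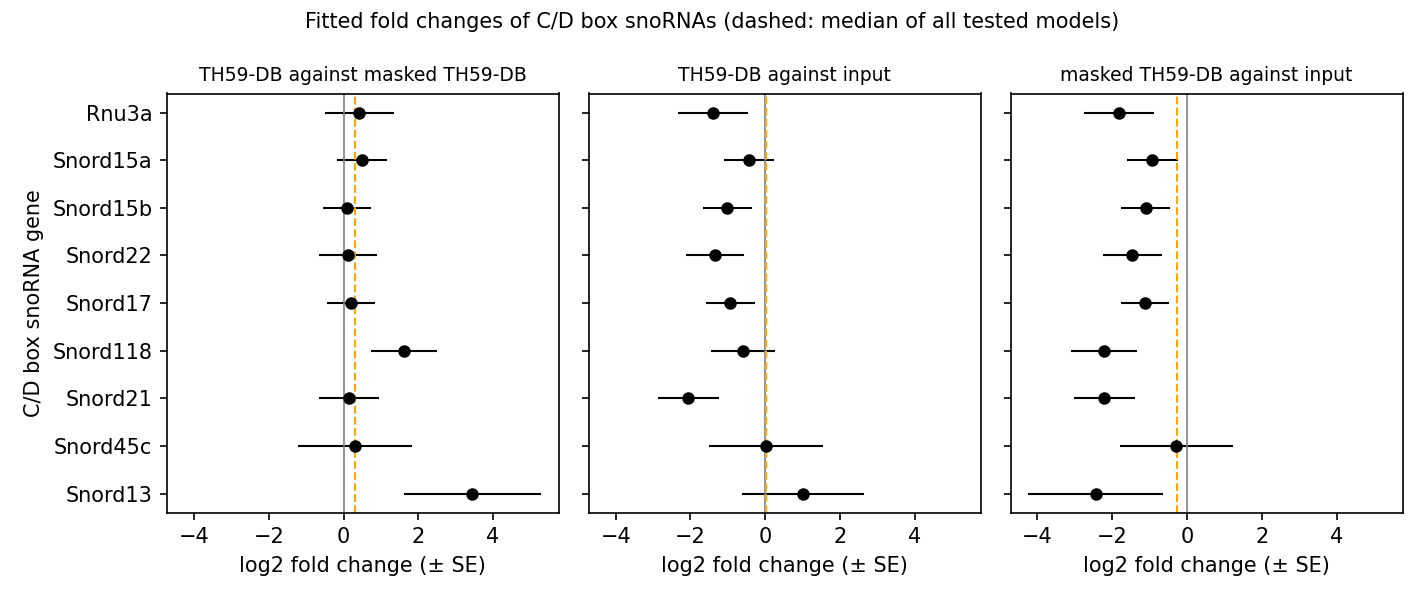
Fitted log2 fold change of each C/D box snoRNA gene with its standard error in the 3 comparisons; the grey line marks no change and the dashed line the median of all tested models. Against the masked probe 7 values lie from 0.10 to 0.50, with Snord118 at 1.62 and Snord13 at 3.45; against input most values lie below 0.

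In the input, library 1 exceeded library 2 for all 9 C/D box genes, by amounts that differed from gene to gene. The ratio of the 2 libraries was 6.69 for Snord13, 4.68 for Rnu3a, 3.49 for Snord118, 3.18 for Snord22 and 3.08 for Snord21. It was 1.76 for Snord15a, 1.26 for Snord15b, 1.19 for Snord17 and 1.02 for Snord45c. Over the 1328 models with a mean of at least 20 CPM, by contrast, the median log2 difference of input 1 over input 2 was -0.60. TH59-DB 1 also exceeded TH59-DB 2 for all 9, from 1.10-fold for Snord22 and Snord45c to 4.51-fold for Snord13, beside a median log2 difference of 0.24. With the masked probe Snord118 alone was higher in library 1, by 2.09-fold, beside a median log2 difference of -1.01. The higher level in library 1 of the input and TH59-DB groups was not particular to C/D box genes. Over the 11 genes of H/ACA box snoRNAs, a class described below, the ratio of library 1 to library 2 ran from 0.962 to 5.22 in the input. With TH59-DB it ran from 1.15 to 5.06.

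Snord15a and Snord15b lie within the span of Rps3, on chromosome 7 from 99477896 to 99483709 on the minus strand. The Rps3 model joined 6 exons and shared 0 bases with the 2 snoRNA models. Unspliced Rps3 RNA could still give reads to any of these models, so the counts do not fully separate snoRNA, spliced host and unspliced host. Per read of the Rps3 model there were 0.794 and 0.286 reads of Snord15a in the input libraries 1 and 2, and 0.470 and 0.425 in the masked libraries. With TH59-DB there were 2.17 and 1.14. The corresponding ratios of Snord15b were 0.819 and 0.413 in the input, 0.353 and 0.546 with the masked probe, and 1.40 and 1.03 with TH59-DB. For both snoRNAs the TH59-DB libraries lay above all others, and the mean ratio was 3.70-fold that of the masked probe for Snord15a and 2.71-fold for Snord15b.

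These are among 8 ratios computed in 3 comparisons each. The exact 2-sided permutation test of 2 libraries against 2 gave p = 0.333 for both, the smallest value it allows, so that no ratio could pass. Snord15a and Snord15b themselves overlapped between TH59-DB and the masked probe, whereas Rps3 lay lower with TH59-DB without overlap, as did 14.7% of all tested models. Rps3 had 196 and 310 CPM in the input, 144 and 218 CPM with the masked probe, and 67.1 and 56.4 CPM with TH59-DB. Its log2 fold change was -1.28 against the masked probe (SE 0.66, adjusted p = 0.648) and -1.95 against input (SE 0.67, adjusted p = 0.192).

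Snord15a had 0.969 and 0.693 reads per read of Snord15b in the input, 1.33 and 0.779 with the masked probe, and 1.54 and 1.11 with TH59-DB. On this ratio TH59-DB lay above the input (exact permutation p = 0.333, the smallest possible) and overlapped the masked probe.

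**Figure D3:**
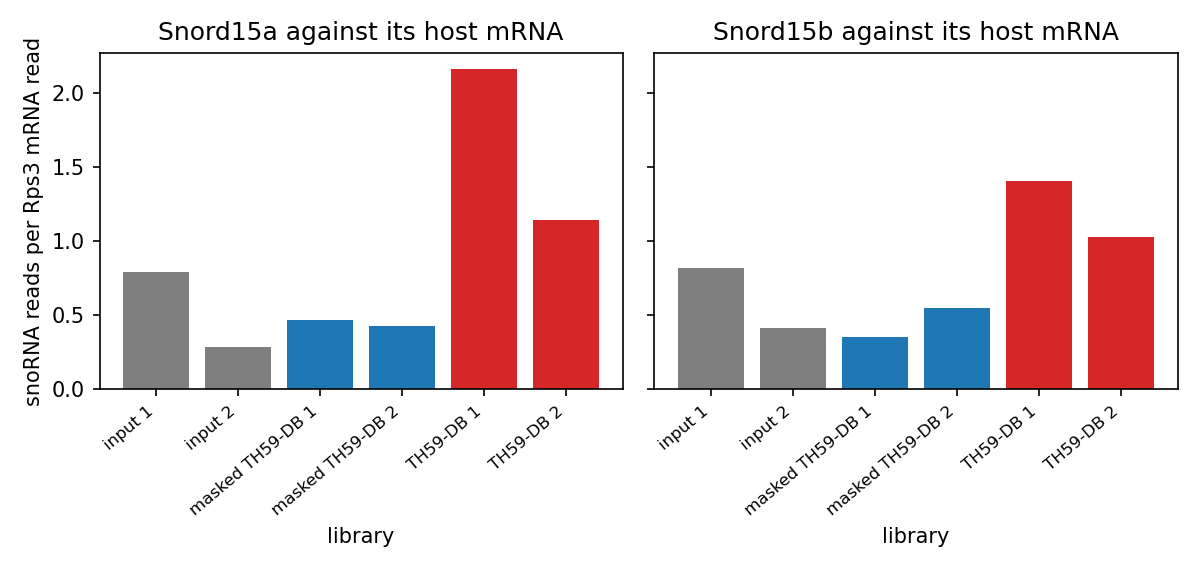
Reads of Snord15a (left) and Snord15b (right) per read of the exon-joining model of their host gene Rps3 in each library. Each bar is 1 library and colours mark the groups. The TH59-DB bars, at 2.17 and 1.14 for Snord15a and 1.40 and 1.03 for Snord15b, stand above all others, of which the tallest is 0.819.

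U3 made up 50.7% of the reads of the 9 C/D box genes in input 1 and 29.1% in input 2, 44.1% and 31.0% in the masked libraries, and 42.3% and 33.1% with TH59-DB. Library 1 had the higher share in each group, and the groups overlapped. The 9 genes summed to 1438 and 536 CPM in the input, 363 and 542 CPM with the masked probe, and 755 and 346 CPM with TH59-DB, and these sums overlapped too.

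H/ACA box snoRNAs guide pseudouridylation of ribosomal RNA, and 11 of their genes had a model. Of these, 0 passed in any comparison with edgeR or DESeq2. With the replicate block, where more of all models passed than in the main fit, Snora73a passed as lower with TH59-DB than in the input (log2 fold change -2.18, adjusted p = 0.0447). The H/ACA median log2 fold change was 0.30 against the masked probe, with 7 positive and 4 negative values, and -0.99 for TH59-DB against input, where the C/D box genes had 0.31 and -0.93. For the masked probe against input it was -1.59, where the C/D box genes had -1.46. Against input 9 of the 11 were negative with TH59-DB and 10 with the masked probe. Without overlap 4 and 6 lay lower than the input, beside 23.5% and 14.4% of all tested models, and 0 lay higher, beside 22.5% and 15.9%. Snora43 and Snora61, at 2.02 and 1.94, lay higher with TH59-DB than with the masked probe without overlap (adjusted p = 0.706 and 0.784), as did 16.1% of all tested models. Of the H/ACA genes 1 lay lower without overlap, beside 14.7% of all tested models. Snora73a had -0.18 and Snora23 -0.16 (adjusted p = 0.980 each). These 4 were chosen after their values were seen. The Snora61 model was 3.44 times as long as its gene. Like Snord13 and Snord45c, Snora61 had 0 reads in masked TH59-DB 1. Without masked TH59-DB 2 its fitted value against the masked probe was 7.43, beside a median of 5.10 over all tested models. Snord13 and Snord45c had 6.85 and 6.76 there. For masked TH59-DB against input Snora61 then had -8.34 and Snord45c -6.71, beside a median of -1.53. Such large values without masked TH59-DB 2 were thus not particular to C/D box genes. There were 2.82 and 1.95 C/D box reads per H/ACA read in the input, 2.80 and 1.78 with the masked probe, and 2.83 and 2.48 with TH59-DB, and the groups overlapped. Leaving out U3, there were 1.39 and 1.38 C/D box reads per H/ACA read in the input, 1.56 and 1.23 with the masked probe, and 1.63 and 1.66 with TH59-DB. The TH59-DB libraries were above the others on this ratio (exact permutation p = 0.333, the smallest possible).

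The scaRNAs are guide RNAs of the Cajal body that act on spliceosomal RNAs, and 5 of their genes had a model. Of the 5 models, 3 (Scarna10 among them) were 4.62 to 7.26 times as long as the gene, so their reads need not all be scaRNA. There were 13.1 and 3.70 reads of C/D box genes per scaRNA read in the input, 2.75 and 2.56 with the masked probe, and 1.91 and 0.447 with TH59-DB. No groups overlapped (exact permutation p = 0.333 for each pair, the smallest possible). The scaRNA sum was 396 and 775 CPM with TH59-DB and 110 to 212 CPM in the other 4 libraries. Scarna13 had a log2 fold change of 2.24 against the masked probe (adjusted p = 0.272) and Scarna6 one of 3.34 (adjusted p = 0.163), and 0 of the 5 passed in any comparison. These calls depended on the setting, and more of all models passed with DESeq2 and with the replicate block than in the main fit. Scarna6 passed against the masked probe with DESeq2 (adjusted p = 0.0196) and with the replicate block (adjusted p = 0.0234). Against input, Scarna13 passed with both (adjusted p = 6.2e-04 and 0.0080) and Scarna10 with DESeq2 (adjusted p = 0.0437). Scarna13 also passed against input with RLE factors, without TMM and with summed counts as library sizes (adjusted p = 0.0334, 0.0451 and 0.0424). Scarna17 passed against input with only the 4 libraries compared (adjusted p = 0.0453). In the main fit 3.62% of all tested models passed for TH59-DB against input and 1.41% against the masked probe. Such shares are not given for these alternatives, so the scaRNA calls in them are description only. Without TH59-DB 1 the scaRNA median log2 fold change was 2.92 against the masked probe and 3.22 against input. The medians over all tested models were then 0.26 and -0.0015. Without TH59-DB 2 the scaRNA medians were 0.44 and 0.47, beside 0.86 and 0.48 over all tested models.

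**Figure D4:**
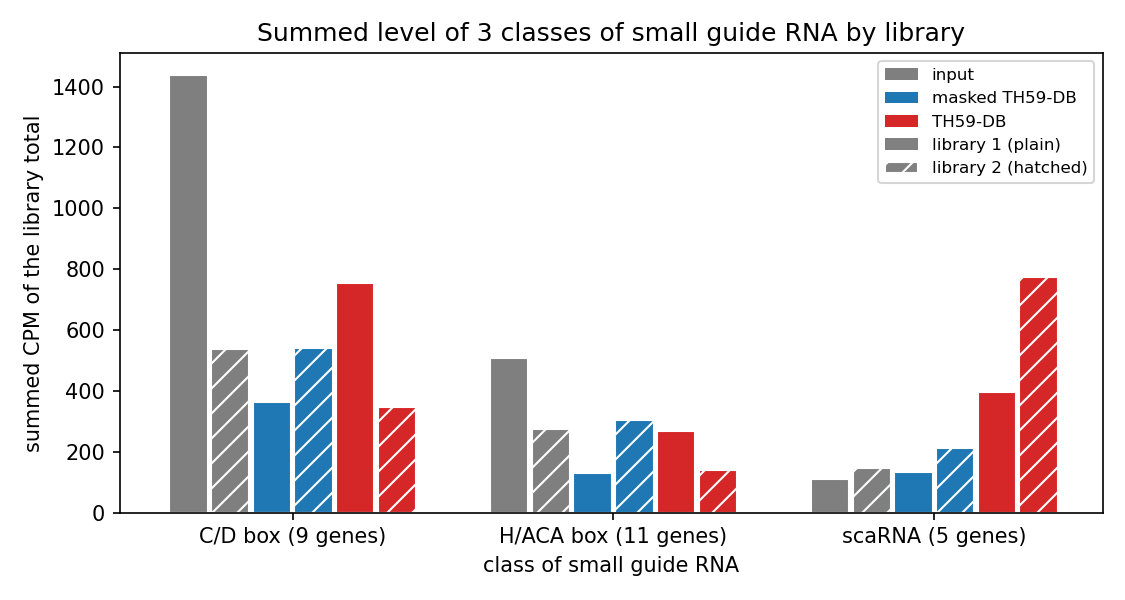
Summed level of the C/D box, H/ACA box and scaRNA genes with a model in each library, in CPM; colours mark the groups and hatching library 2. The C/D box sum is highest in input 1 at 1438 CPM, whereas the scaRNA sum is highest in TH59-DB 2 at 775 CPM.

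Of the 4 core proteins of C/D box particles, Nop56 alone had a model. It had 55.6 and 89.0 CPM in the input, 143 and 142 CPM with the masked probe, and 67.1 and 39.8 CPM with TH59-DB. TH59-DB lay below the masked probe without overlap, as did 14.7% of all tested models, and the log2 fold change came to -1.28 (SE 0.61, adjusted p = 0.554).

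Of 39 genes of the U3 particle and small-subunit processome 17 had a model and 15 were tested, and 0 passed in any comparison. Against the masked probe 8 values were positive and 7 negative, with a median of 0.02. Against input 3 were positive and 12 negative with TH59-DB, and 4 positive and 11 negative with the masked probe. Utp18, a processome subunit, had a log2 fold change of -1.45 against the masked probe (adjusted p = 0.423). Nat10, the acetyltransferase that works with U13 in human cells, had 1.27 (adjusted p = 0.945), with 10 and 17 reads with TH59-DB and 0 and 22 with the masked probe.

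Of 12 genes for assembly and maturation of these particles 6 had a model and 5 were tested, and 0 passed. A model in the span of Tgs1, whose enzyme hypermethylates the cap of U3, had 40 and 17 reads with TH59-DB, 2 in input 1, and 0 in input 2 and both masked libraries. It was among the 5 tested with edgeR, with adjusted p = 0.166 for TH59-DB against the masked probe and 0.234 against input. Since every listed model has reads in TH59-DB 1, these reads are given as a description, not as a sign of capture. A model in the span of a gene need not belong to its transcript. Nolc1, a nucleolar chaperone of snoRNAs, had a log2 fold change of -0.14 against the masked probe (adjusted p = 0.980).

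The profiles nearest to each gene were taken as those with the smallest root mean square difference of log2(CPM + 0.5) over the 6 libraries, each centred on its own mean, among named models with a mean of at least 20 CPM. For Rnu3a they were a model in the span of Taf1d at 0.31, one in Gm2412 at 0.32 and Gm23971, an snRNA in RefSeq, at 0.35, beside a median of 1.19 over 1160 models. Gm23971 had 258 and 45.5 CPM in the input, 55.8 and 45.5 CPM with the masked probe, and 167 and 56.4 CPM with TH59-DB, with input 1 and TH59-DB 1 high as for Rnu3a. For Snord15a the nearest were a model in Setdb1 at 0.30, Rmrp, the RNA of RNase MRP, at 0.31, and a model in Spryd3 at 0.36, beside a median of 0.90. Rmrp had 677 and 429 CPM in the input, 214 and 375 CPM with the masked probe, and 826 and 388 CPM with TH59-DB. For Snord13, with 0 to 22 reads a library, they were a model in Snhg20 at 0.70, Gm25360 at 0.84 and Gm25813 at 0.87, beside a median of 1.81.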

How the data were processed

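Each deposited file held 1 library, with counts (whole reads per transcript model) and FPKM values that the authors made, each equal to the count divided by model length and a library total. The submitters' processing notes name cutadapt, HISAT2, Cufflinks, featureCounts and the build mm10, without roles or versions. Library totals were recovered from the deposited FPKM, which served for nothing else. Files were joined on chromosome and exon starts and ends (7695 models) or on first start and length (264 models). Gene names came from RefSeq on GRCm38.p6. The 90% limit on covering a gene was chosen after seeing that the Rnu3a model misses 2 bases.

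Counts were tested with edgeR 4.0.16 in R 4.3.3 (recovered totals as library sizes, filterByExpr, TMM, robust glmQLFit, 2-sided quasi-likelihood F-tests). A single model with a term for group covered all 6 libraries; 5385 models were tested and the biological coefficient of variation was 0.702. The code was tested on simulated counts. Exact tests used scipy 1.17.1. Alternatives were DESeq2 1.42.0, other scalings, no filter, only the libraries compared, the replicate number as a block, and leaving out each library. Named were the 3 genes, every other C/D box gene with a model, up to 4 H/ACA and 4 scaRNA genes, listed pathway genes (the most abundant model with at least 50% of its bases in the gene span), and the 3 nearest profiles. The members and lists were chosen with earlier results of these data known.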

Additional observations from a re-analysis of the deposited data

How the results depend on the processing

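None of the 3 genes passed in any comparison under the alternatives run, with the exception of Snord13 against the masked probe without masked TH59-DB 2; its adjusted p over the alternatives ran from 0.0322 to 1.00. With 1 library left out in turn, the log2 fold changes against the masked probe ran from -0.20 to 0.58 for Rnu3a, 0.07 to 0.50 for Snord15a and 2.56 to 6.85 for Snord13. Those of TH59-DB against input ran from -2.26 to 0.57, -1.01 to 0.41 and 0.0033 to 3.25, and those of masked TH59-DB against input from -2.42 to 0.40, -1.28 to 0.12 and -5.90 to 0.0027. Against the masked probe the direction turned for Rnu3a without masked TH59-DB 2. Without input 1 it turned for Rnu3a and Snord15a in both comparisons with input, and for Snord13 in masked TH59-DB against input. The cause was not tested. Without input 1 the median of all tested models was 0.54 for TH59-DB against input and 0 for masked TH59-DB against input. A group left with 1 library was assumed to vary like the others. The number of models passing, in the order TH59-DB against masked TH59-DB, TH59-DB against input and masked TH59-DB against input, was 76, 195 and 14, and ran from 32 to 1720, 102 to 756 and 0 to 1413 with 1 library left out. It was 266, 393 and 112 with DESeq2, 206, 312 and 113 without the filter, and 191, 363 and 106 with the replicate block. In the first and last comparison it was 167 and 57 with RLE factors, 155 and 108 with library totals without TMM, and 155 and 50 with summed counts as library sizes, an alternative added after seeing the data. With only the 4 libraries compared it was 129 and 497 in the first and second, and Snord13 was then too low to be tested in both comparisons with the masked probe. With the replicate block the log2 fold change of Snord13 was 3.03 against the masked probe, and no call of the C/D box genes changed, while Snora73a, Scarna13 (both TH59-DB against input) and Scarna6 (against the masked probe) passed. Deviations of same-numbered libraries correlated at 0.142 (input with masked TH59-DB), 0.108 (input with TH59-DB) and 0.0204 (masked TH59-DB with TH59-DB), and no label ties the numbers, so they were not taken as pairs. Ratios of mean CPM moved by less than the spread between libraries under the other denominators. With a length limit of 3 times the gene, 8 C/D box genes had a model. Depth limits Snord13, with 0 to 22 reads a library.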
